A study of Mus musculus with 6 samples.

Results

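The alkaline phosphatase genes *Alpi*, *Akp3* and *Alpl* were examined in colon tissue of mice that were prone (OP) or resistant (OR) to obesity. They were found by gene symbol among the 17778 genes listed, and all 3 were listed. They were chosen by their FPKM in these same 6 mice: *Alpi* was known to be higher in OP mice from an earlier look, and the others were taken as its relatives. The difference between OP and OR mice is therefore given for the members as a description, without a test. RNA was sequenced from the colon of 3 OP mice and 3 OR mice, each as a library of its own. All were male wild-type C57BL/6J mice, 21 weeks old, that had eaten a diet with 60% fat for 16 weeks. OP mice came from the 10 animals with the highest weight gain among 42 on this diet and OR mice from the 10 with the lowest. The groups thus differ in weight gain and not in genotype or diet, and no animals on a normal diet were sequenced. Levels are in FPKM, fragment numbers corrected for transcript length and library size, which can be compared between genes within a mouse. The read depth of each mouse is unknown, because FPKM values rounded to 2 decimals give no read totals.

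Alkaline phosphatases remove phosphate groups from many molecules at the outer face of the cell, where a lipid anchor (glycosylphosphatidylinositol, GPI) holds them in the membrane. *Alpi* encodes the global intestinal enzyme of the mouse, which sits on the brush border of enterocytes, strips phosphate from bacterial lipopolysaccharide (LPS) and extracellular nucleotides, and is released during fat absorption. *Akp3* encodes the duodenal enzyme. *Alpl* encodes the tissue-nonspecific enzyme of bone, liver, kidney and other tissues, which breaks down pyrophosphate and the phosphorylated form of vitamin B6. Another gene of the family, *Alppl2*, encodes the embryonic enzyme and is given beside the members.

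In the RefSeq gene order *Alppl2*, *Alpi* and *Akp3* lie next to each other on chromosome 1, and *Alpl* lies on chromosome 4. The reference sequences are shown because the neighbouring genes are close copies and yet had very different levels in the colon, and because close copies could exchange reads when expression is estimated. In the GENCODE M21 transcripts (GRCm38), the coding sequence of *Alpi* has 1665 bases and that of *Akp3* 1680, and 81.5% of their aligned bases are identical. *Alpi* and *Alppl2* share 81.7%, whereas *Alpi* and *Alpl* share 66.1%. The longest run of coding bases that *Alpi* and *Akp3* have in common is 68 bases, from base 115 to base 182 of the *Alpi* coding sequence, and is shown to mark where a read could come from either gene.
*Alpi* and *Akp3*: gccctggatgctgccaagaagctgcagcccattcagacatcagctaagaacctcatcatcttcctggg

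Of the stretches of 50 coding bases in *Alpi*, 35, or 2.17%, also occur in *Akp3*, and none occurs in *Alpl*. With *Alppl2* the shared stretch of 50 bases is 1. How reads that fit several genes were handled is not settled by the sources used here, and low values of *Akp3* and *Alppl2* beside a far higher *Alpi* are therefore uncertain. The read length was not given in the sources used here.

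The promoters of the neighbours are alike as well. The 125 bases before the transcription start of each gene are shown from RefSeq (GRCm38.p6), 5′ to 3′ on the strand of the gene, with *Alpl* for contrast. Capitals mark a pair of 13-base blocks that the first 3 promoters share, TTCAGTTCACAGG and GGGTGGGGCCAGG, and CAAAGT (or its reverse complement ACTTTG), the core of the site bound by the enterocyte factor HNF4.
*Alppl2*: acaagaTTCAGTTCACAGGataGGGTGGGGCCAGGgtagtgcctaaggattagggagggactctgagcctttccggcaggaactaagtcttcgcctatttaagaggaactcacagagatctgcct
*Alpi*: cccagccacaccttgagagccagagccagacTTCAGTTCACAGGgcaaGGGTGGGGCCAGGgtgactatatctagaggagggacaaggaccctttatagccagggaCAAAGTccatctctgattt
*Akp3*: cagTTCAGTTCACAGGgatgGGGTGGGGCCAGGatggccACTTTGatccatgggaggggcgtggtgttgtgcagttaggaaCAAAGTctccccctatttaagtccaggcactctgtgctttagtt
*Alpl*: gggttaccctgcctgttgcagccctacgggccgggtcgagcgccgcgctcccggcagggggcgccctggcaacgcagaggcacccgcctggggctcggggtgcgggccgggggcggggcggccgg

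These stretches lie at chr1:87089929-87090053 on the minus strand (*Alppl2*), chr1:87101607-87101731 on the minus strand (*Alpi*), chr1:87124829-87124953 on the plus strand (*Akp3*) and chr4:137796385-137796509 on the minus strand (*Alpl*, at the first of its start sites listed). Over the 250 bases before the start, and on either strand, GGGTGGGGCCAGG occurs in 15 of 32851 RefSeq promoters (0.0457%) and TTCAGTTCACAGG in 9 (0.0274%), the 3 genes included. The full HNF4 motif CAAAGTCCA occurs in the *Alpi* promoter, 19 to 11 bases before the start, in none of the other promoters, and in 0.384% of all promoters. Its core CAAAGT occurs in 12.6% of all promoters, and in *Alpl* it lies 214 to 209 bases before the first start, outside the stretch shown. The GGGTGG of the second block is also the reverse complement of the CCACCC box bound by KLF factors, which 28.1% of promoters hold. The *Alpl* promoter at the first start has 68.4% G and C and 20 CpG pairs in 250 bases, against 54.4% and 0 in *Alpi*. At another listed start of *Alpl* the values are 56.0% and 4, close to those of *Alpi*. The medians of all promoters are 52.4% and 6. A motif match describes the letters only and shows no binding.

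Before the members' values, 2 libraries need a word. The genes that mark the position along the gut set OP mouse 2 apart. *Hoxb13*, a gene of the hind end of the body axis, had an FPKM of 46.9 in this mouse and at most 1.29 in the other mice, *Hoxa13* had 29.5 against at most 3.58, and *Hoxd10* had 0.04 against at least 2.60. OP mouse 1 had the lowest median FPKM over all genes (3.55, against 4.90 to 5.76) and the lowest weight, 0.332, when limma weighted the libraries. The members' ratios are given with and without these mice. Of the markers of the labelled tissue, *Lypd8*, a protein of colonocytes, had an FPKM of at least 5991 in all 6 mice and *Lct*, the lactase of the small intestine, at most 0.05, while *Slc10a2*, the bile acid transporter of the ileum, had 37.0 to 88.8 in all but OP mouse 2 (1.03).

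*Alpi* was the main alkaline phosphatase of the colon in every mouse. In OP mice 1, 2 and 3 its FPKM was 40.72, 56.98 and 59.00, and in OR mice 1, 2 and 3 it was 38.51, 25.74 and 34.96. The 3 OP mice lay above the 3 OR mice, but OP mouse 1 exceeded OR mouse 1 by only 2.21 FPKM, less than the spread within either group. OP mice averaged 52.2 ± 10.02 (SD, n = 3) and OR mice averaged 33.1 ± 6.59 (SD, n = 3), a ratio of 1.58. On the log2(FPKM + 1) scale the difference OP minus OR was 0.64 (standard error 0.21). Without OP mouse 1 the ratio of the means was 1.75 and without OP mouse 2 it was 1.51, and with each of the 6 mice left out in turn it stayed between 1.42 (without OR mouse 2) and 1.75. After median-of-ratios scaling, which equalises the typical gene between mice, the values were 50.7, 57.5 and 54.2 in OP mice and 34.8, 26.2 and 32.8 in OR mice, and the gap between the groups was wider. Of all 13520 genes tested, 29.9% had a positive difference and 1.63% had every OP mouse above every OR mouse.

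*Alpl* had the opposite order at a far lower level. In OP mice 1, 2 and 3 its FPKM was 0.71, 0.2 and 0.12, and in OR mice 1, 2 and 3 it was 1.53, 1.35 and 0.84. The groups did not overlap, with 0.13 FPKM between OP mouse 1 and OR mouse 3. OP mice averaged 0.343 ± 0.320 (SD, n = 3) and OR mice averaged 1.24 ± 0.358 (SD, n = 3), so the OR mean was 3.61 times the OP mean. The difference OP minus OR was -0.75 (standard error 0.22) on the log2(FPKM + 1) scale, which understates differences of low genes, and was -1.79 with 0.1 added in place of 1. Without OP mouse 1 the OR mean was 7.75 times the OP mean, and without OP mouse 2 it was 2.99 times. After median-of-ratios scaling OP mouse 1 (0.885) was above OR mouse 3 (0.789), so that the groups overlapped. Of the genes tested, 70.1% had a negative difference and 6.81% had each OP value under each OR value. *Alpl* entered the set of tested genes, which needed an FPKM of 0.5 in 3 mice, through the 3 OR mice and OP mouse 1.

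*Akp3* was at or near 0 throughout. It was listed at 0.03 in OP mouse 1, at 0.12 in OP mouse 3 and at 0 in the other 4 mice, among them all OR mice. No fold change is given against a group listed at 0, and it was not among the 2 members that passed the filter on low values. Whether the values above 0 come from reads of its close copy *Alpi* was not tested.

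*Alppl2* did not separate the groups. OP mice had 0.08, 0.31 and 0.79 FPKM and OR mice 0.97, 0.45 and 0.68, with means of 0.393 ± 0.362 (SD, n = 3) and 0.700 ± 0.261 (SD, n = 3).

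**Figure D1:**
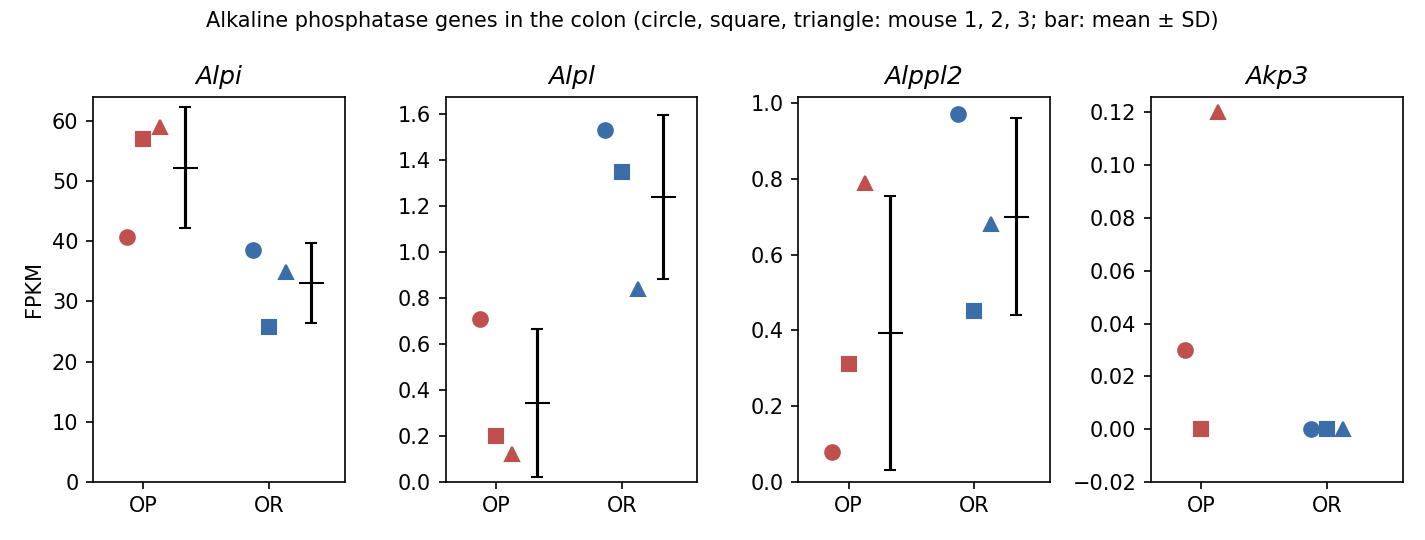
Level of each alkaline phosphatase gene in FPKM (vertical axis, a separate linear scale for each gene) in the 3 OP mice (red) and 3 OR mice (blue); symbols are mice and black bars the mean ± SD, left out for *Akp3*. *Alpi* lies between 40.7 and 59.0 in OP mice and between 25.7 and 38.5 in OR mice, and *Alpl* is the reverse at 0.12 to 0.71 and 0.84 to 1.53.

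The order of the 4 genes was led by *Alpi* in all mice. Its lowest value was 16.8 times the highest value of *Alpl*. *Alpl* was above *Alppl2* in all 3 OR mice but in only 1 of the 3 OP mice, and in OP mice their means differed by less than the spread of either. *Akp3* was last in 5 of the 6 mice and level with *Alpl* at 0.12 in OP mouse 3. As a share of the summed FPKM of the 4 genes, *Alpi* made up 98.0%, 99.1% and 98.3% in OP mice and 93.9%, 93.5% and 95.8% in OR mice. The share of *Alpl* was 1.71%, 0.348% and 0.2% in OP mice and 3.73%, 4.90% and 2.30% in OR mice. The ratio of *Alpi* to *Alpl* was 57.4, 285 and 492 in OP mice 1, 2 and 3 and 25.2, 19.1 and 41.6 in OR mice 1, 2 and 3. The ranges of the groups did not overlap in any of these 3 measures. They are computed from the same FPKM values by which the members were chosen, so they restate the differences above and add no support. The mean share of *Alpi* differed by 4.07 percentage points between the groups, and by 3.61 to 4.79 with each mouse left out.

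**Figure D2:**
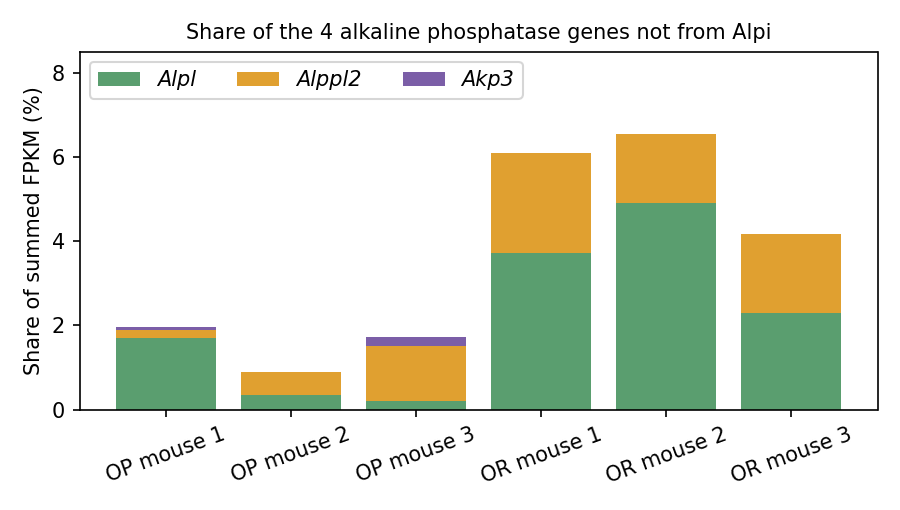
Share of the summed FPKM of the 4 alkaline phosphatase genes that did not come from *Alpi* (percent, vertical axis) in each mouse, split into *Alpl*, *Alppl2* and *Akp3*. The part of *Alpl* is between 0.2% and 1.71% in OP mice and between 2.30% and 4.90% in OR mice.

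Because *Alpi* is an epithelial gene, its level was set against epithelial genes of the same mouse. In bulk tissue, fewer cells of a type and less RNA per cell cannot be told apart. The difference between *Alpi* and the mean of 12 epithelium markers, such as *Epcam* and *Krt8*, came to -3.95, -3.40 and -2.98 (log2 scale) in OP mice and -3.47, -4.50 and -3.94 in OR mice. OP mouse 1, whose *Alpi* was the lowest of its group, now fell among the OR mice. The mean difference between the groups was 0.53 in this measure, close to the 0.64 of *Alpi* alone, but the groups overlapped. Against 12 genes of brush border structure, such as villin (*Vil1*), the values were -2.62, -1.65 and -1.46 in OP mice and -1.90, -2.89 and -1.85 in OR mice, with a group difference of 0.30. Against 15 genes of differentiated colonocytes the group difference was 0.17, well within the spread of 0.797 (SD) in OP mice and 0.749 in OR mice. Against 14 other brush border hydrolases the order of the groups was kept, with values of 2.11, 3.12 and 1.79 in OP mice and 1.052, 1.375 and 1.64 in OR mice.

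**Figure D3:**
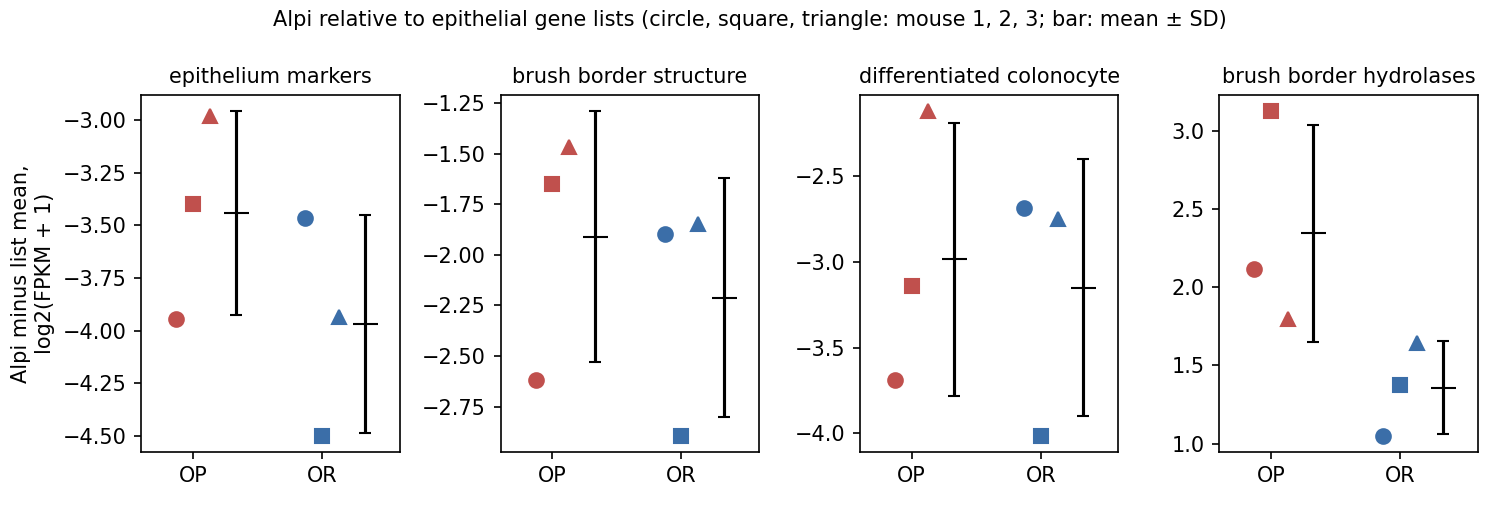
Level of *Alpi* minus the mean of each epithelial gene list in the same mouse, on the log2(FPKM + 1) scale (vertical axis, a separate scale for each list, not starting at 0), for OP mice (red) and OR mice (blue), with the mean ± SD as black bars. The groups overlap for the epithelium markers, the brush border structure genes and the colonocyte genes, and lie apart for the brush border hydrolases.

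*Alpi* ranked 4th by mean FPKM among itself and the 16 other brush border hydrolases listed, below the meprins *Mep1a* and *Mep1b* and the peptidase *Naaladl1*. Of the 14 hydrolases tested, 3 had a positive and 11 a negative difference OP minus OR, where 70.1% of all genes tested were negative. The median of the hydrolases was -0.40, against a median of -0.10 over all genes tested, which median-of-ratios scaling moved to 0.01. With single mice left out, the median of the hydrolases lay between -0.75 (without OP mouse 3, when 2 hydrolases were lower at an unadjusted p below 0.05) and -0.17 (without OP mouse 2). It was -0.24 without OP mouse 1 and -0.20 without OR mouse 1. Genes other than the members were tested with limma-trend over all 13520 genes. These p-values set the difference between the groups against the spread between mice within a group. At a Benjamini-Hochberg adjusted p below 0.2 and a fold of at least 1.2 either way, 0 genes were higher in OP mice and 3 were lower (0.0222%), none of them in a list named here. *Mep1b* was the only hydrolase of the list at an unadjusted limma-trend p below 0.05 (difference 0.53, standard error 0.21, limma-trend adjusted p = 0.945). This was lost without OP mouse 1, OP mouse 2, OR mouse 2 or OR mouse 3. At that level 0.503% of all genes (68) were higher and 3.53% (477) lower in OP mice. These numbers were themselves unsteady, at 24 to 178 higher and 223 to 1094 lower with single mice left out, the lowest without OR mouse 3 and the highest without OP mouse 3, and 154 and 421 after median-of-ratios scaling. *Sis*, the sucrase-isomaltase of the small intestine, had 0.40, 0.08 and 8.76 in OP mice and 10.1, 1.06 and 3.84 in OR mice. The bile acid uptake genes of the ileum, *Fabp6* and *Slc10a2*, were likewise highest in OR mouse 1 and lowest in OP mouse 2. *Alpi* was high in OP mouse 2 (56.98), where these genes were lowest, and in OP mouse 3 (59.00), where they were the highest of the OP mice. The position of the tissue piece along the gut and its part in the level of *Alpi* were not tested.

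The 12 brush border structure genes all had a positive difference OP minus OR, where 29.9% of all genes tested did. Their median was 0.36, although none reached an unadjusted limma-trend p below 0.05. With single mice left out this median lay between 0.16 (without OP mouse 1) and 0.55 (without OR mouse 2), and it was 0.24 without OR mouse 3. At that p, 3 genes were higher without OP mouse 3 or without OR mouse 2 and 1 without OP mouse 2. The number over all genes rose as well, from 68 of 13520 with all mice. It was 178 of 13340 without OP mouse 3, 125 of 13394 without OR mouse 2 and 172 of 13405 without OP mouse 2. Of the 15 colonocyte genes 12 were positive, with a median of 0.30. Their median was 0.14 without OP mouse 1, 0.18 without OR mouse 1, 0.52 without OR mouse 2 and 0.62 without OP mouse 3, when 4 of them were higher at that p. Without OP mouse 1, OR mouse 1 or OR mouse 2 the number was 2, where 97, 52 and 125 of all genes were higher, in that order. *Ceacam20*, an adhesion molecule of the microvilli, was the one colonocyte gene at an unadjusted p below 0.05, with 123, 97.7 and 73.6 FPKM in OP mice and 58.7, 60.4 and 42.9 in OR mice (difference 0.84, standard error 0.22, limma-trend adjusted p = 0.805). Of 13 enterocyte transcription factors tested, 8 had a positive and 5 a negative difference, with a median of 0.03 that lay between -0.04 and 0.06 with single mice left out. After median-of-ratios scaling the median of these factors was 0.16, with 9 positive and 4 negative. *Klf4*, *Cdx2* and *Hnf4a*, whose products are known to act on intestinal alkaline phosphatase genes, had differences of 0.27 (standard error 0.32), 0.16 (standard error 0.14) and 0.15 (standard error 0.13) in that order. *Cdx1* and the thyroid hormone receptor *Thra*, known to act on these genes as well, had -0.09 (standard error 0.19) and -0.40 (standard error 0.22). The groups overlapped in all 5. *Klf5*, a factor of proliferating crypt cells, was the one gene of the list at an unadjusted p below 0.05, and lower in OP mice (difference -0.40, limma-trend adjusted p = 0.945). It no longer was after median-of-ratios scaling or without OP mouse 1, OR mouse 1 or OR mouse 3.

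The genes whose pattern over the 6 mice was most like that of *Alpi* were sought among 9024 genes with a mean FPKM of at least 5. Likeness was the mean absolute difference between the deviations of the gene and of *Alpi* from their own means on the log2(FPKM + 1) scale. The closest was *Ak4*, a mitochondrial adenylate kinase, at 0.122, followed by the histone gene *H2aw* (0.148), the mitochondrial creatine kinase *Ckmt1* (0.164), *Rpl37rt* (0.164), the phosphofructokinase *Pfkp* (0.171), *Trim16* (0.175), the carbonyl reductase *Cbr1* (0.178) and the receptor phosphatase *Ptprj* (0.179). The median over all genes compared was 0.393. *Alpi* itself lay at -0.01, 0.46 and 0.51 in OP mice and at -0.09, -0.65 and -0.23 in OR mice. *Ak4* had 6.78, 10.4 and 9.77 FPKM in OP mice and 7.56, 5.28 and 6.74 in OR mice, so that its groups overlapped through OP mouse 1. The genes were picked for their likeness, so it is a description over 6 mice.

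**Figure D4:**
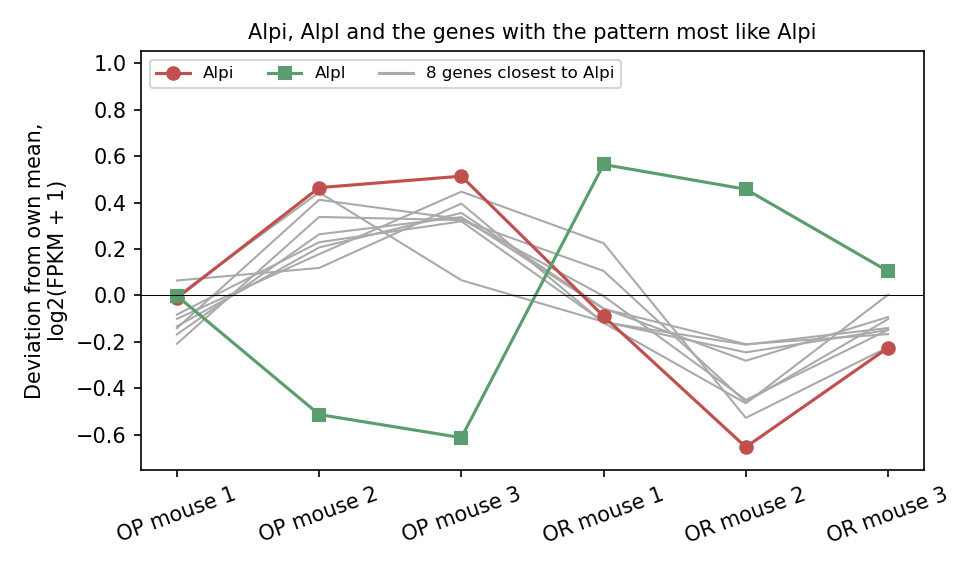
Deviation of *Alpi* (red), *Alpl* (green) and the 8 genes closest to *Alpi* (grey) from their own mean over the 6 mice, on the log2(FPKM + 1) scale (vertical axis); lines join the values of a gene and the order of the mice has no meaning. *Alpi* and *Alpl* are both near 0 in OP mouse 1 and on opposite sides of 0 in the other 5 mice.

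Genes that act on the substrates of *Alpi* were compared next. Of 10 LPS recognition genes tested, the LPS binding protein *Lbp* was lower in OP mice at an unadjusted p below 0.05 (difference -0.72, standard error 0.18, limma-trend adjusted p = 0.798). *Lbp* lay close to the filter of 0.5 FPKM, with 0.82, 0.48 and 0.59 in OP mice and 1.35, 1.6 and 2.14 in OR mice. The receptor *Tlr4* and its partners did not reach that p. For comparison with this list and those below, 3.53% of all genes were lower at that p. Of 14 genes of extracellular nucleotide breakdown, the ectonucleotidase *Entpd1* and the adenosine transporter *Slc29a1* were lower at that level, also with each mouse left out. The ectonucleotidase *Enpp3* (0.11, 0.3 and 0.24 FPKM in OP mice, 0.63, 0.75 and 1.33 in OR mice) entered the test through the OR mice alone and is not counted, and it left the test when any OR mouse was dropped. *Entpd1* had 1.91, 1.73 and 1.87 FPKM in OP mice and 3.53, 4.09 and 3.53 in OR mice (difference -0.73, standard error 0.17, limma-trend adjusted p = 0.729). *Entpd8*, an ectonucleotidase of the colon epithelium, had a difference of 0.66 (standard error 0.30, limma-trend adjusted p = 0.945), close to that of *Alpi*. It had 168, 116 and 91.3 FPKM in OP mice and 68.2, 111 and 58.6 in OR mice, so that its groups overlapped. OP mouse 1 had the highest *Entpd8* but the lowest *Alpi* of the OP mice. Of 13 genes of fat uptake and chylomicron assembly, the fatty acid receptor *Cd36* was lower in OP mice at an unadjusted p below 0.05 (difference -1.26, standard error 0.39, limma-trend adjusted p = 0.945), and the list had a median of 0.05, between -0.02 and 0.26 with single mice left out. The 31 genes of GPI anchor assembly, which build the anchor of all 4 enzymes, had differences between -0.30 and 0.21 and a median of -0.02, with 0 genes at an unadjusted limma-trend p below 0.05. After median-of-ratios scaling their median was 0.11, with 24 positive and 7 negative.

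*Alpl* acts in pyrophosphate and vitamin B6 metabolism. The genes of these lists stand beside the same 3.53% of all genes lower at an unadjusted limma-trend p below 0.05. Of 11 phosphate and pyrophosphate genes tested, the calcification inhibitor *Mgp* was lower in OP mice at an unadjusted p below 0.05 (difference -0.58, limma-trend adjusted p = 0.945), which was lost after median-of-ratios scaling and without OP mouse 1, OP mouse 2, OR mouse 1 or OR mouse 3. *Enpp1*, which makes pyrophosphate, had 1.66, 4.82 and 4.27 FPKM in OP mice and 4.26, 2.54 and 4.51 in OR mice. *Phospho1*, a phosphatase that acts beside *Alpl* in bone, had 55.7, 6.69 and 42.7 in OP mice and 29.3, 29.3 and 26.3 in OR mice. Of the 4 vitamin B6 genes, 0 reached an unadjusted limma-trend p below 0.05.

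Markers of blood endothelium, fibroblasts and macrophages were, like *Alpl*, lower in OP mice. Not all immune markers were: of 5 B and plasma cell markers tested, 3 had a positive and 2 a negative difference. Their median was 0.85, and -0.03 without OP mouse 3. With limma-trend at an unadjusted p under 0.05, 10 of 12 blood endothelium markers, 9 of 10 fibroblast and matrix markers and 8 of 8 macrophage markers were lower in OP mice, against 3.53% of all genes, and 0 of these passed the adjusted threshold. The endothelium count was 1 without OR mouse 3, 5 without OP mouse 2 and 6 without OP mouse 1. The fibroblast count was 4 without OR mouse 3 and 6 without OP mouse 1, OP mouse 2 or OR mouse 1. The macrophage count was 4 without OP mouse 2 or OR mouse 2 and 5 without OP mouse 1 or OR mouse 3. The summed FPKM of the endothelium markers was 26.2, 24.6 and 41.96 in OP mice and 44.97, 59.99 and 80.4 in OR mice. Within each group, the mouse with the highest endothelium sum, mouse 3, had the lowest *Alpl*. The fibroblast sum, 149, 112 and 196 in OP mice and 286, 287 and 503 in OR mice, was also highest in mouse 3 of each group. The macrophage sum was 47.1, 32.6 and 89.2 in OP mice and 96.6, 129 and 111 in OR mice. The summed FPKM of the 9 neutrophil markers listed was 3.34, 15.5 and 1.43 in OP mice and 2.00, 2.33 and 2.66 in OR mice. *S100a9*, a defining neutrophil gene, was at most 0.49, and 7 of the 9 were below 1 in all mice, the others being *S100a8* (at most 1.90) and *Ly6g* (12.5 in OP mouse 2). The part of these cells in the level of *Alpl* was not tested.

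**Figure D5:**
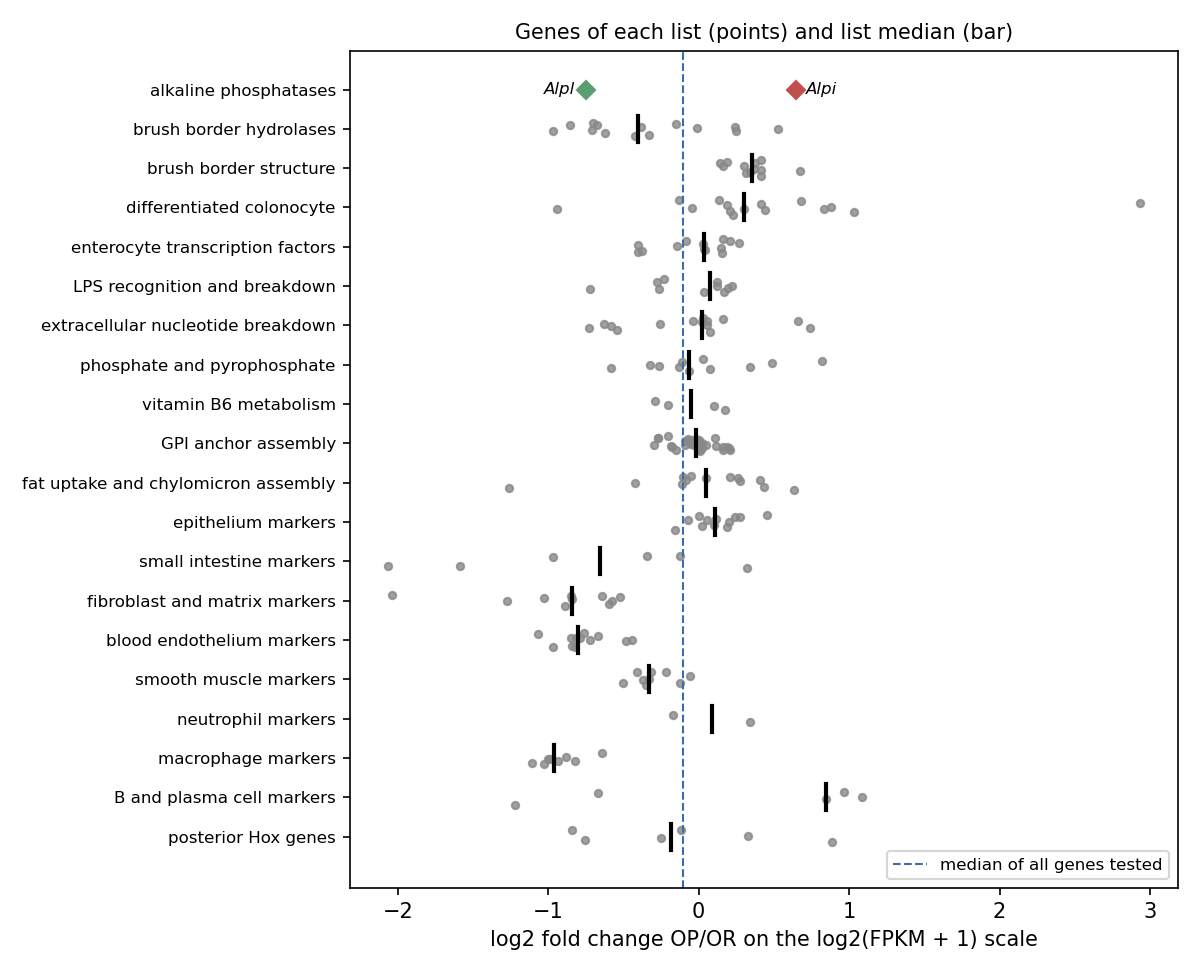
Difference OP minus OR on the log2(FPKM + 1) scale (horizontal axis) for each tested gene of the lists (grey points) with the list median (black bar), the median of all genes tested (dashed line, -0.10), *Alpi* (red) and *Alpl* (green). *Alpi* lies above the median of the brush border structure genes (0.36). On this scale *Alpl* lies near the medians of the blood endothelium (-0.80), fibroblast (-0.84) and macrophage (-0.96) markers. With 0.1 added in place of 1, *Alpl* was at -1.79 and these medians at -1.10, -0.91 and -1.12, so the nearness depends on the scale.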

How the data were processed

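Colon RNA from 3 OP and 3 OR mice was enriched for mRNA, made into strand-specific libraries and sequenced on a DNBSEQ instrument. The deposited values are FPKM per gene symbol, which the authors made with SOAPnuke, Bowtie2 and RSEM according to their methods, whereas the submitters' processing notes list HISAT2 2.0.4 and GRCm39. Read totals cannot be recovered from these values, so no count test was run. All columns were used.

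Values were taken as log2(FPKM + 1), genes with at least 0.5 FPKM in at least 3 mice were kept, and a limma-trend fit (version 3.58.1 of limma in R 4.3.3) over all these genes tested OP minus OR, with Benjamini-Hochberg adjustment. The script was tested on simulated data. The members and gene lists were chosen with earlier results of these data known. Genes to be named were the 4 family genes, the 8 genes most like *Alpi* and, from each list, the 4 of highest mean FPKM and the 2 of lowest unadjusted p. *Cdx1*, *Enpp1*, *Enpp3*, *Hoxb13*, *Lct*, *Ly6g*, *Phospho1*, *S100a9*, *Sis* and *Tlr4* were named after their values were seen. Sequences came from RefSeq (GRCm38.p6) and GENCODE M21, an older build than GRCm39, and were used with Biopython 1.88 for sequence only. Other scalings, filters, pseudocounts, library weights, a replicate block and leaving out each mouse were tried.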

Additional observations from a re-analysis of the deposited data

How the results depend on the processing

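*Alpi* kept a positive difference under every alternative run, from 0.48 (without OR mouse 2) to 0.81 (without OP mouse 1). *Alpl* kept a negative difference, from -0.94 to -0.63 with a mouse left out and -1.79 with a pseudocount of 0.1, and could not be computed where a gene needed an FPKM of 1 in all 6 mice. *Akp3* passed no filter on low values, and no fold is given for it without the filter either, since all OR mice were listed at 0. The number of genes lower in OP mice at an adjusted p below 0.2 was 3. It was 2 without the trend, 5 with library weights, 0 to 1 when single mice were dropped (1 without OP mouse 2), and 0 with the replicate block, TPM, no filter, at least 1 FPKM in all mice, median-of-ratios scaling or a pseudocount of 0.1. No gene was higher in OP mice at that level under any of these (68 at an unadjusted limma p below 0.05). The replicate numbers of the labels do not pair the mice, which are different animals: deviations of same-numbered mice correlated at -0.14, -0.16 and 0.07. For mice of different numbers they lay between -0.46 (OP mouse 1 with OR mouse 3) and 0.54 (OP mouse 1 with OR mouse 2). Whether particular OP and OR mice share a batch or tissue position was not tested. At an unadjusted p below 0.05, the replicate block gave 66 genes higher and 409 lower in OP mice, against 68 and 477. The cause of these differences was not tested. With 3 mice in a group and an unknown depth, the values of *Akp3* and *Alpl* near 0 are the least certain.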

Other observations

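OP mouse 3 had an FPKM of 39.8 for the B cell gene *Cd79a*, against 3.05 to 5.67 in the other mice. It also had the highest *Alpi* (59.00). OP mouse 2, with the lowest *Cd79a* (3.05), had an *Alpi* of 56.98. The part of B cells in the level of *Alpi* was not tested. *Jchain*, of the same B and plasma cell list, was lower in OP mice at an unadjusted p below 0.05 (difference -1.22, standard error 0.28, limma-trend adjusted p = 0.766). Smooth muscle markers had a median difference OP minus OR of -0.33, and 0 of 9 reached an unadjusted limma-trend p below 0.05.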
